A study of Mus musculus with 23 samples.

Results

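Ribosomal proteins, translation factors and the non-coding RNA Gas5 were followed in the hippocampus of middle-aged and young mice. The members are the array's probe sets whose annotated gene symbol begins with Rpl or Rps and a digit, with Rplp, or with the prefixes Eef1, Eef2 and Eif1 to Eif5, together with Gas5, Rpsa, Tpt1 and Npm1. The Rps6k and Eif2ak kinases were left out. The rule uses names alone, and 115 of the 12422 non-control probe sets, standing for 82 of 8251 genes, met it with a single symbol. Of these, 77 probe sets of 66 genes were bright enough to be tested, out of 7453 tested in all.

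Hippocampi were taken whole from male mice of the strain C57BL/6JNIA, 14 of them 15 months old and 9 of them 2 months old. Each mouse gave 1 array, and the design text calls the mice biological replicates. By the protocol, mice of both ages went through training in the Morris water maze, a spatial memory task, and were killed by cervical dislocation. The values are MAS5 signals on a linear scale, and signals of different probe sets cannot be compared as transcript amounts. Of 10 hippocampal neuron markers on the array, 8 were bright enough to be tested, and their mean log2 level was 10.14 to 10.68 at 15 months and 10.36 to 10.59 at 2 months. The 15-month replicate 13 stood apart from the other arrays, with a median correlation of 0.947 with them and a 25th percentile of signal of 53.6. A further 4 arrays, 2 of each age, had the lowest 99th percentile of signal and are described with the results they touch.

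A ribosome is built from a small subunit with Rps proteins and a large subunit with Rpl proteins, on a scaffold of ribosomal RNA. Initiation factors, named eIF, bring mRNA, initiator tRNA and both subunits together, and elongation factors, named eEF, deliver aminoacyl-tRNA and move the ribosome along. Many mRNAs of this machinery begin with a C followed by a run of pyrimidines, the terminal oligopyrimidine or TOP tract, through which mTOR signalling controls their translation. Gas5 begins with such a tract as well. It is a spliced RNA whose introns carry small nucleolar RNAs, its spliced form is broken down by nonsense-mediated decay when ribosomes run on it, and in human cells it can bind the glucocorticoid receptor.

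The annotated transcript starts of 10 members on which the results turn are shown first, because a TOP tract lies at the 5′ end of the RNA. Each sequence runs from 10 bases before to 20 bases from the start given by RefSeq on GRCm38.p6, on the strand of the gene, and capitals mark the longest run of C and T of at least 5 letters that begins with C. Rps24 has a further annotated start, which is not shown.
Gas5, chr1:161035156-161035185, plus strand: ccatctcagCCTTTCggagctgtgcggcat
Gas5, chr1:161034591-161034620, plus strand: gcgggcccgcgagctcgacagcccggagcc
Eif3f, chr7:108934405-108934434, plus strand: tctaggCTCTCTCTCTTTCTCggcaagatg
Eif5, chr12:111538091-111538120, plus strand: cgacgtgcatgcgagccaatgacaagagaa
Rps7, chr12:28635934-28635963, minus strand: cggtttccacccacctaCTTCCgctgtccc
Rps24, chr14:24490668-24490697, plus strand: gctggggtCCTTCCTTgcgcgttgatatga
Rpl13a, chr7:45128726-45128755, minus strand: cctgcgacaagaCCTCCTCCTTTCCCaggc
Rplp0, chr5:115559457-115559486, plus strand: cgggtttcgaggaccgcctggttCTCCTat
Eef1a1, chr9:78481705-78481734, minus strand: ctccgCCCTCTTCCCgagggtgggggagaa
Eef1a2, chr2:181156996-181157025, minus strand: cctggtctgcgttctcgctcactggttctc
Tpt1, chr14:75845246-75845275, plus strand: cgctgacgacagttccgggggagccgcgga

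The table of RefSeq starts used here held 67 of the 82 genes. One of the 2 annotated Gas5 starts has the letters CTTTC from the first transcribed base on, and the other window, further upstream, has no run of 5. In the 30-base window the letters CTTTC were found on the gene's strand for 12 of the 67 member genes (17.9%), against 4.43% of all 27025 genes with a start. On the other strand they were found for 4 member genes (5.97%), against 4.31% of all genes. The looser pattern, a C and then 4 letters that are each C or T, was found on the gene's strand for 34 member genes (50.7%), against 39.6% of all genes. On the other strand that pattern was found for 30 (44.8%), against 44.5% of all genes. Among the 28 ribosomal protein genes with a start, 19 held the looser pattern and 7 held CTTTC, against 10 and 2 on the other strand. Among 32 initiation factor genes 12 held the looser pattern (37.5%) and 4 held CTTTC, against 16 and 1 on the other strand. Among 5 elongation factor genes 2 held the looser pattern and 0 held CTTTC, against 3 and 1 on the other strand. Every CTTTC match is also a match of the looser pattern, and a match describes the letters and not a working TOP tract.

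Gas5 rose at 15 months, and it was the 1 member that passed the test. Its brighter probe set had a signal of 4066.2 at the lowest, 4651.65 at the median and 5157.7 at the highest among 15-month mice, against 3341.7, 3993.7 and 4140.8 among 2-month mice. The ages nearly separated: 13 of 14 mice of 15 months lay above the highest 2-month mouse, and 6 of 9 mice of 2 months lay below the lowest 15-month mouse. The mean signal was 4622 ± 283 at 15 months (SD, n = 14) and 3935 ± 242 at 2 months (SD, n = 9), a 1.17-fold difference with a 95% interval of 1.10 to 1.25. In the limma fit over all 7453 probe sets, on log2(signal + 16), the change was 0.23 ± 0.05 (SE; adjusted p = 0.0128). All 14 mice of 15 months exceeded the 2-month mean. Over all tested probe sets 0.376% passed the test, 0.335% higher and 0.0403% lower at 15 months, and of the 77 member probe sets the 1 that passed makes 1 in 77. The ages did not overlap at all in 0.0537% of tested probe sets and in none of the members. All of the 15-month mice lay on 1 side of the 2-month mean in 1.7% of tested probe sets and in 3 member probe sets, those of Gas5, Eif3f and Eif2d.

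A dimmer Gas5 probe set differed in the same direction without passing. It had 77.5, 128.9 and 171.2 at 15 months as lowest, median and highest, against 65.1, 98.9 and 120.8 at 2 months. Its log2 difference was 0.32 ± 0.13 (SE; adjusted p = 0.317), with 11 of 14 mice of 15 months above the 2-month mean. The 2 probe sets may share probes, so they may not be independent measures. Over all 23 mice their log2 signals correlated at r = 0.63 (permutation p = 0.00115, adjusted p = 0.00345 over 3 such relations) and rho = 0.56 (permutation p = 0.00651, adjusted p = 0.0195). Without the 2 mice farthest from the median r was 0.52. Both probe sets had higher means at 15 months, so this relation over all mice includes the age difference. Within the ages the relation did not pass: r was 0.44 at 15 months (permutation p = 0.116, adjusted p = 0.154; rho = 0.36, p = 0.202, adjusted p = 0.304) and 0.51 at 2 months (permutation p = 0.154, adjusted p = 0.154; rho = 0.35, p = 0.360, adjusted p = 0.360). Without the 2 farthest mice r was 0.51 at 15 months and 0.021 at 2 months, where it rested on those mice. One more Gas5 probe set, with a mean signal of 14.7, was too dim to test.

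**Figure D1:**
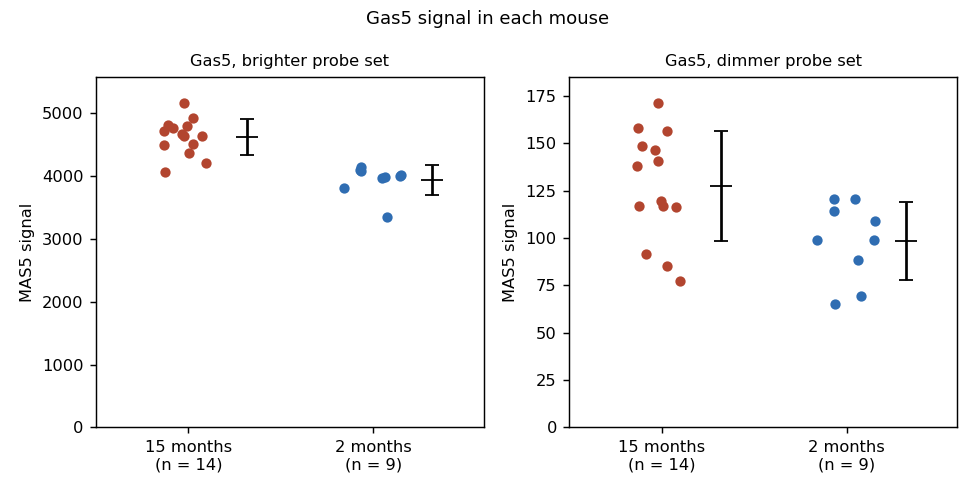
MAS5 signal of the tested Gas5 probe sets, the brighter on the left and the dimmer on the right, in each of 14 mice of 15 months and 9 of 2 months; dots are mice and bars show mean ± SD. In the left panel 13 of 14 mice of 15 months lie above the highest 2-month mouse, and in the right panel the ages overlap widely.

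Several cell type and hormone markers moved with age in the same arrays. All 11 tested microglia markers were above 0 in log2 change and 5 passed, with a mean log2 level of the list of 9.28 to 9.61 at 15 months and 9.00 to 9.31 at 2 months. Among 7 astrocyte markers 6 were above 0 and 1 passed, with levels of 10.18 to 10.44 at 15 months and 9.94 to 10.26 at 2 months. All 9 tested genes of the glucocorticoid receptor list were above 0 and 3 passed, with levels of 10.24 to 10.74 at 15 months and 10.08 to 10.38 at 2 months. Their part in the Gas5 result was not tested. In whole tissue, more RNA per cell and more cells of a type that holds the RNA cannot be told apart. Oligodendrocyte markers (2 of 7 above 0), endothelial markers (6 of 9 above 0, 1 passed) and meningeal markers (7 of 10 above 0) had median log2 changes of -0.09, 0.02 and 0.16. The 3 tested choroid plexus markers were above 0, with list levels of 7.00 to 10.79 at 15 months and 6.44 to 10.65 at 2 months. The single tested red blood cell marker had a log2 level of 11.11 to 12.23 at 15 months and 11.25 to 12.05 at 2 months.

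For most tested ribosomal protein genes the difference between the ages was bounded at 1.19-fold by its 95% interval. With each gene given by its probe set of highest mean, none of the 26 tested ribosomal protein genes passed the test. Their log2 changes were above 0 for 18 and below for 8, with a median of 0.031. Over the 5680 tested genes 2603 were above 0, with a median of -0.014. Among the 542 other probe sets with a mean signal over 3000, 297 were above 0, with a median of 0.013. At an unadjusted p under 0.05 the count of ribosomal protein genes was 1, Rps7, or 3.85%, against 12.4% of all tested probe sets. The 95% interval lay wholly within 0.25 of 0 on the log2 scale, a 1.19-fold change either way, for 17 of the 26 genes (65.4%). The same held for 38.6% of all tested genes and for 71.0% of the 542 other probe sets with a mean signal over 3000. The Gas5 change of 0.23 was below that bound too, so the bound does not set these genes apart from Gas5. The tested ribosomal protein genes had a median signal of 6261 and a median SE of 0.070, against 519 and 0.094 over all tested genes.

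**Figure D2:**
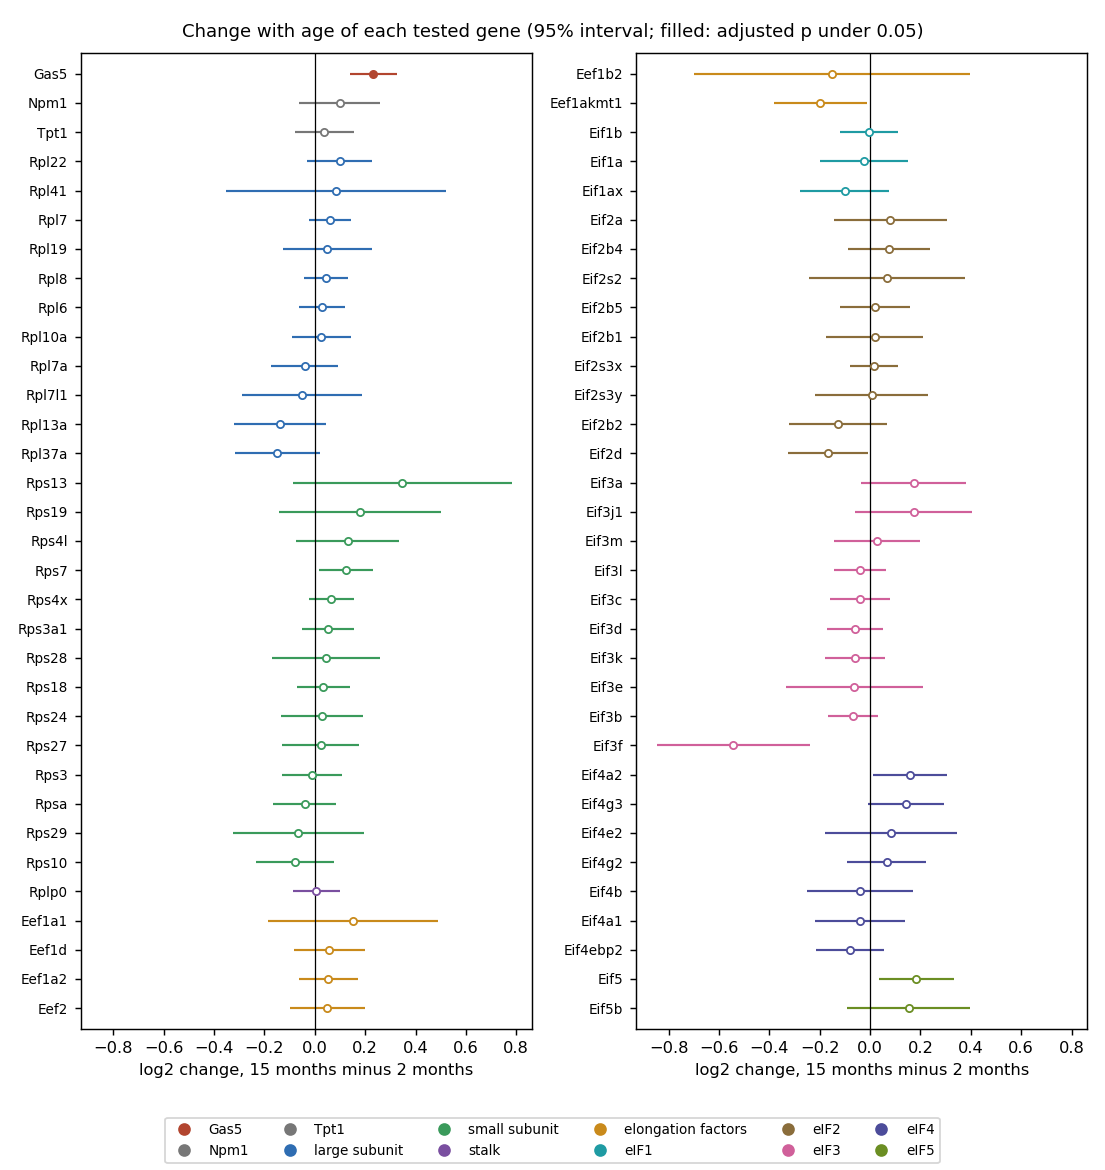
Log2 change, 15 months minus 2 months, of each of the 66 tested genes by its probe set of highest mean, with the 95% interval of the limma fit; colours give the role, and a filled point marks an adjusted p under 0.05. The Gas5 point is the only filled one, and most ribosomal protein intervals are short and span 0.

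Of the large subunit 16 genes were on the array and 11 were tested. By their brightest probe sets the median log2 change was 0.028 and the range -0.15 to 0.10. The genes of lowest p were Rpl19, Rpl37a and Rpl13a. Rpl37a had 4160.9, 4869.4 and 6760.7 as lowest, median and highest at 15 months, against 4617.8, 5685.0 and 6495.4 at 2 months. The ages overlapped, and the log2 difference was -0.15 ± 0.08 (SE; adjusted p = 0.467). Rpl13a, whose protein can leave the ribosome and repress inflammatory mRNAs in human monocytes, had a mean signal of 777 ± 134 at 15 months and 847 ± 62.0 at 2 months, with a log2 difference of -0.14 ± 0.09 (SE; adjusted p = 0.533). Rpl19 was read by 2 probe sets of very different signal. The bright one had 9226 ± 1293 at 15 months and 8906 ± 1252 at 2 months, for a log2 difference of 0.05 ± 0.09 (SE; adjusted p = 0.843). The dim one had 133 ± 65.1 at 15 months and 77.6 ± 44.2 at 2 months, for a log2 difference of 0.64 ± 0.25 (SE; adjusted p = 0.289). Its 2-month mice ran up to 178.4 and its 15-month mice down to 34.6, so the ages overlapped across most of the range. Rpl7l1, a relative of Rpl7 named for the lowest signal of its group, had 148 ± 25.6 at 15 months and 155 ± 30.7 at 2 months (adjusted p = 0.878).

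The stalk at the factor-binding site of the large subunit was represented by Rplp0 alone. Its signal was 7170.7 at the lowest, 8343.2 at the median and 8978.3 at the highest at 15 months, against 7691.1, 8036.4 and 8651.3 at 2 months. The ranges lay over each other, and the log2 difference of 0.006 ± 0.045 had a 95% interval of -0.087 to 0.099 (adjusted p = 0.968).

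Of the small subunit 18 genes were on the array and 14 were tested. By their brightest probe sets the median log2 change was 0.038 and the range -0.08 to 0.35. Rps7, a protein of the small subunit that can also bind the p53 regulator Mdm2, had 7431.8, 8861.35 and 9904.7 as lowest, median and highest at 15 months, against 7524.3, 7881.8 and 9116.1 at 2 months. Its log2 difference was 0.12 ± 0.05 (SE; adjusted p = 0.342), with 12 of 14 mice of 15 months above the 2-month mean, and the ages overlapped between 7524.3 and 9116.1. Rps4x, the X-linked form of a small subunit protein, differed by 0.065 ± 0.044 (SE; adjusted p = 0.551), from signals of 7785 ± 553 at 15 months and 7424 ± 212 at 2 months. The dim probe set of Rps13 had the widest interval of the group, -0.09 to 0.78, with signals of 165 ± 91.8 at 15 months and 121 ± 42.2 at 2 months (adjusted p = 0.514). Rps24 had the highest signal of the group, 14241 ± 1866 at 15 months and 13952 ± 1691 at 2 months, and a log2 difference of 0.03 ± 0.08 (SE; adjusted p = 0.910). Rpsa, a small subunit protein also known as the laminin receptor precursor, had 2111 ± 186 at 15 months and 2174 ± 218 at 2 months, for a log2 difference of -0.04 ± 0.06 (SE; adjusted p = 0.819).

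A further 40 probe sets carried a member symbol beside other symbols, mostly those of pseudogenes, and are described without gene names. None of the 35 that were tested passed. Their median log2 change was 0.026, with 21 above 0 and 14 below. Of the 35, 3 (8.57%) were higher and 0 lower at an unadjusted p under 0.05, against 5.89% and 6.51% of all tested probe sets. The lowest adjusted p was 0.317.

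**Figure D3:**
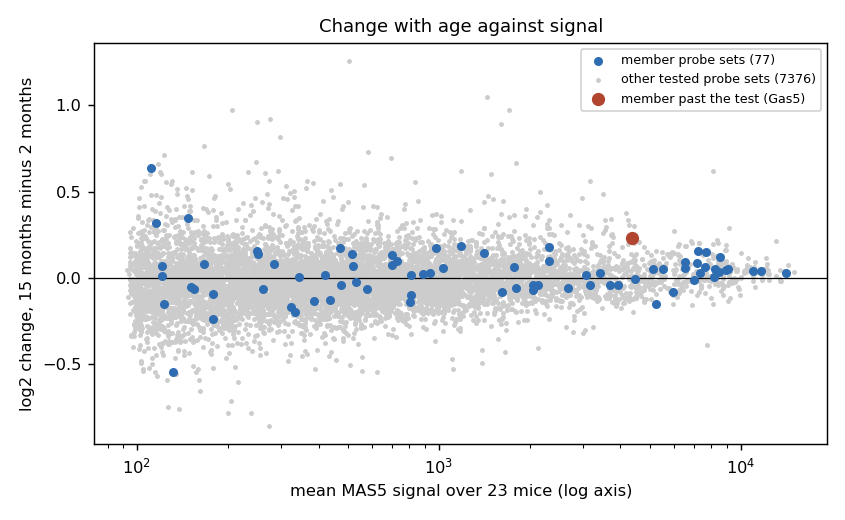
Log2 change, 15 months minus 2 months, against the mean MAS5 signal over 23 mice on a log axis, for the 77 member probe sets and the other tested probe sets. The spread narrows as signal rises, and the Gas5 point lies above the band of member probe sets of like signal.

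No elongation factor gene passed the test. Of 8 genes on the array 6 were tested, with a median log2 change of 0.052. Eef1akmt1 alone, 1 of 6, was lower at an unadjusted p under 0.05, against 6.30% of all tested genes, and 0 were higher. Eef1a1, which delivers aminoacyl-tRNA in most cells, had 4438.7, 8390.05 and 10820.5 as lowest, median and highest at 15 months, against 3656.3, 7701.6 and 9293.2 at 2 months. The ages overlapped between 4438.7 and 9293.2, with 6 of 14 mice of 15 months above the highest 2-month mouse. The log2 difference was 0.15 ± 0.16 (SE; adjusted p = 0.744), and it was -0.0059 with the 99th percentile of each array as a covariate. Eef1a2, the form used by mature neurons and muscle, had 4788.7, 5516.0 and 6917.5 at 15 months, against 4386.8, 5410.8 and 5947.1 at 2 months. Its log2 difference was 0.05 ± 0.06 (SE; adjusted p = 0.734), with an interval of -0.06 to 0.17. Eef2, the translocase, had 5197 ± 521 at 15 months and 5039 ± 668 at 2 months, for a log2 difference of 0.05 ± 0.07 (SE; adjusted p = 0.817). Eef1akmt1, a methyltransferase that modifies eEF1A and a member by its prefix, had 317 ± 51.2 at 15 months and 363 ± 41.8 at 2 months, for a log2 difference of -0.20 ± 0.09 (SE; adjusted p = 0.368). The dim probe set of Eef1b2, a nucleotide exchange factor of eEF1A, had a log2 difference of -0.15 ± 0.27 (SE; adjusted p = 0.846) from signals of 121 ± 72.8 at 15 months and 125 ± 48.6 at 2 months.

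Initiation factors split evenly in direction, 16 of 31 tested genes above 0 and 15 below, with a median log2 change of 0.0067 and none past the test. At an unadjusted p under 0.05, 2 were higher and 2 lower, against 5.89% higher and 6.51% lower over all tested probe sets. The mean log2 level over the 31 genes was 9.62 to 9.75 at 15 months and 9.62 to 9.73 at 2 months, so the mice of both ages covered the same range.

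Among the factors that open initiation, the eIF1 genes had log2 changes between -0.10 and -0.0052 by their brightest probe sets. Eif1b, a form of the factor that checks the start codon, had 4463 ± 494 at 15 months and 4461 ± 223 at 2 months (adjusted p = 0.977). Eif1ax, which encodes a form of eIF1A, had a log2 difference of -0.10 ± 0.09 (SE; adjusted p = 0.662) in its brighter probe set and -0.06 ± 0.10 (SE; adjusted p = 0.830) in the other. The probe sets of Eif1a differed in sign, at -0.03 ± 0.09 (adjusted p = 0.920) and 0.14 ± 0.10 (adjusted p = 0.592).

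The eIF2 group covers the carrier of initiator tRNA and its exchange factor eIF2B. By their brightest probe sets all 9 tested genes had intervals within 0.5 of 0, as did 87.9% of all tested genes. Eif2d, which can place initiator tRNA on the small subunit without eIF2, had 249.3, 309.2 and 343.6 as lowest, median and highest at 15 months, against 255.1, 360.7 and 402.4 at 2 months. None of the 15-month mice reached the 2-month mean, although the ages overlapped between 255.1 and 343.6, and the log2 difference was -0.17 ± 0.08 (SE; adjusted p = 0.372). Of the eIF2B genes, Eif2b2 had 422 ± 72.0 at 15 months and 461 ± 63.2 at 2 months, for a log2 difference of -0.13 ± 0.10 (SE; adjusted p = 0.602). Eif2b5 had log2 differences of 0.02 ± 0.07 (adjusted p = 0.926) and -0.13 ± 0.08 (adjusted p = 0.530) in its 2 probe sets. The X-linked eIF2 gamma gene Eif2s3x had 3096 ± 241 at 15 months and 3059 ± 119 at 2 months (adjusted p = 0.916), and the eIF2 beta gene Eif2s2 had 124 ± 31.8 at 15 months and 118 ± 30.6 at 2 months (adjusted p = 0.881).

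The eIF3 complex, the largest initiation factor and the platform on the small subunit, held the change farthest from 0 among the 66 tested genes, each by its brightest probe set. Eif3f had 59.4, 108.4 and 161.4 as lowest, median and highest at 15 months, against 117.1, 167.5 and 208.9 at 2 months. All 14 mice of 15 months lay below the 2-month mean, though the ranges overlapped between 117.1 and 161.4. The log2 difference of -0.54 ± 0.15 (SE), with an interval of -0.85 to -0.24, missed the threshold (adjusted p = 0.117). Its signal is little above the filter of 91.7. The other 9 tested eIF3 genes had log2 changes of -0.068 to 0.17. Eif3a, the largest subunit, had 493 ± 87.6 at 15 months and 432 ± 64.5 at 2 months, for a log2 difference of 0.17 ± 0.10 (SE; adjusted p = 0.504). Eif3j1, a loosely bound subunit, had one of 0.17 ± 0.11 (SE; adjusted p = 0.541), and Eif3c, a core subunit, had 3653 ± 369 at 15 months and 3744 ± 191 at 2 months (adjusted p = 0.808).

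**Figure D4:**
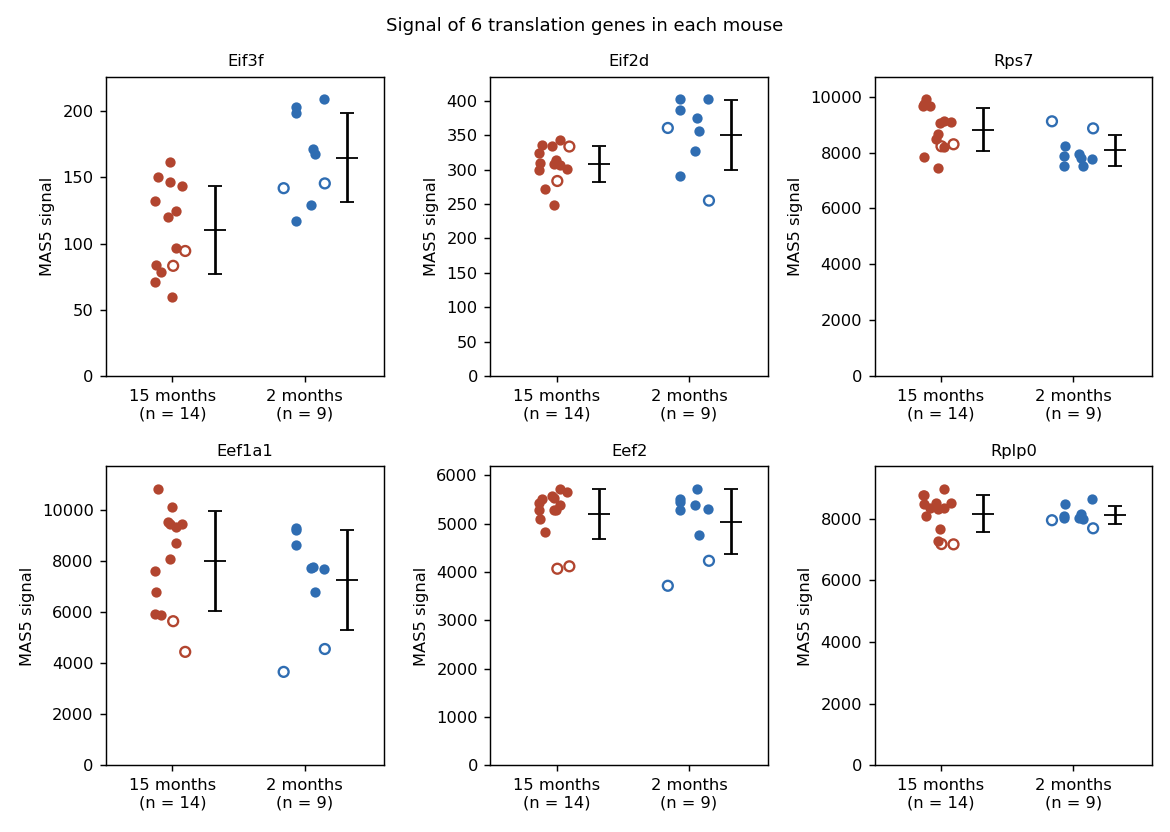
MAS5 signal of Eif3f, Eif2d, Rps7, Eef1a1, Eef2 and Rplp0 in each of 14 mice of 15 months and 9 of 2 months; bars show mean ± SD, and open circles are the 4 arrays with the lowest 99th percentile of signal. Eif3f mice of 15 months all lie below the 2-month mean, and the open circles are the lowest mice of each age for Eef1a1 and Eef2.

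The eIF4 group recruits mRNA through its cap. Eif4a2, an RNA helicase abundant in brain, had 5600.7, 7524.0 and 9341.6 as lowest, median and highest at 15 months, against 5768.2, 6635.2 and 7520.1 at 2 months. The log2 difference was 0.16 ± 0.07 (SE; adjusted p = 0.371), with 11 of 14 mice of 15 months above the 2-month mean. Eif4g3, a scaffold of the cap complex, had 1462 ± 182 at 15 months and 1323 ± 169 at 2 months, for a log2 difference of 0.14 ± 0.07 (SE; adjusted p = 0.438). Eif4ebp2, the brain form of the repressors that hold eIF4E until mTOR phosphorylates them, had 1582 ± 176 at 15 months and 1671 ± 155 at 2 months, for a log2 difference of -0.08 ± 0.07 (SE; adjusted p = 0.641). Its second tested probe set had -0.24 ± 0.31 (SE; adjusted p = 0.791). Eif4e2, a cap-binding relative of eIF4E, had 172 ± 49.0 at 15 months and 159 ± 29.3 at 2 months (adjusted p = 0.825).

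In the last group, Eif5, which makes eIF2 hydrolyse GTP once the start codon is found, had 980.8, 1260.0 and 1462.1 as lowest, median and highest at 15 months, against 879.5, 1103.5 and 1212.6 at 2 months. Its log2 difference was 0.18 ± 0.07 (SE; adjusted p = 0.289), with 11 of 14 mice of 15 months above the 2-month mean. Eif5b, which joins the subunits, had 262 ± 59.5 at 15 months and 231 ± 36.1 at 2 months, for a log2 difference of 0.15 ± 0.12 (SE; adjusted p = 0.631).

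Tpt1, a growth-linked protein whose mRNA is a known TOP mRNA although its annotated start window above holds no run, had 11128 ± 1011 at 15 months and 10830 ± 895 at 2 months, for a log2 difference of 0.04 ± 0.06 (SE; adjusted p = 0.820). Npm1, the nucleolar chaperone of ribosome assembly, had 2382 ± 328 at 15 months and 2209 ± 182 at 2 months, for a log2 difference of 0.10 ± 0.08 (SE; adjusted p = 0.636). For 10 genes 2 or more probe sets were tested, and in 6 of them all pointed the same way. The 16 genes with no probe set bright enough were Rpl32, Rpl35a, Rpl38, Rpl39, Rpl39l, Rps14, Rps15, Rps20, Rps27l, Eef1g, Eef2k, Eif4e, Eif4ebp1, Eif4enif1, Eif4h and Eif5a, and nothing is said of their change.

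Between mice, bright probe sets were on average lower on the arrays with the lowest 99th percentile of signal, as that choice of arrays implies. The mean ribosomal protein level and the elongation factors Eef1a1 and Eef2 were among those that were lower there. The 99th percentile of signal was lowest, at 6622 to 6966, on 4 arrays: replicates 3 and 12 of the 15-month mice, and replicates 7 and 8 of the 2-month mice. The 17 ribosomal protein genes with a mean signal over 3000 lay on average 0.12 to 0.26 below their own age's mean log2 level on these 4 arrays, and between 0.05 below and 0.11 above it on the other 19. The 542 other probe sets of such signal were also lower there, by 0.06 to 0.15, against 0.03 below to 0.08 above on the other arrays. Eef1a1 was lower by 0.45 to 0.93 and Eef2 by 0.24 to 0.43 on the 4 arrays, while Gas5 lay between 0.14 below and 0.03 above. Rps7 lay below its mean on the 2 arrays of 15-month mice, at 8294.1 and 8222.4, while the 2 arrays of 2-month mice held its highest signals of that age. Of the 124 non-control probe sets of highest mean signal, 9 are members and 13 carry a member symbol beside others, so the percentile is in part a measure of the members themselves. Without their probe sets the same 4 arrays had the lowest 99th percentile. Without these arrays the Gas5 change was 0.25 (adjusted p = 0.0205) and it was again the 1 member that passed. Without replicate 13 of the 15-month mice that change was 0.231 (adjusted p = 0.0186).

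**Figure D5:**
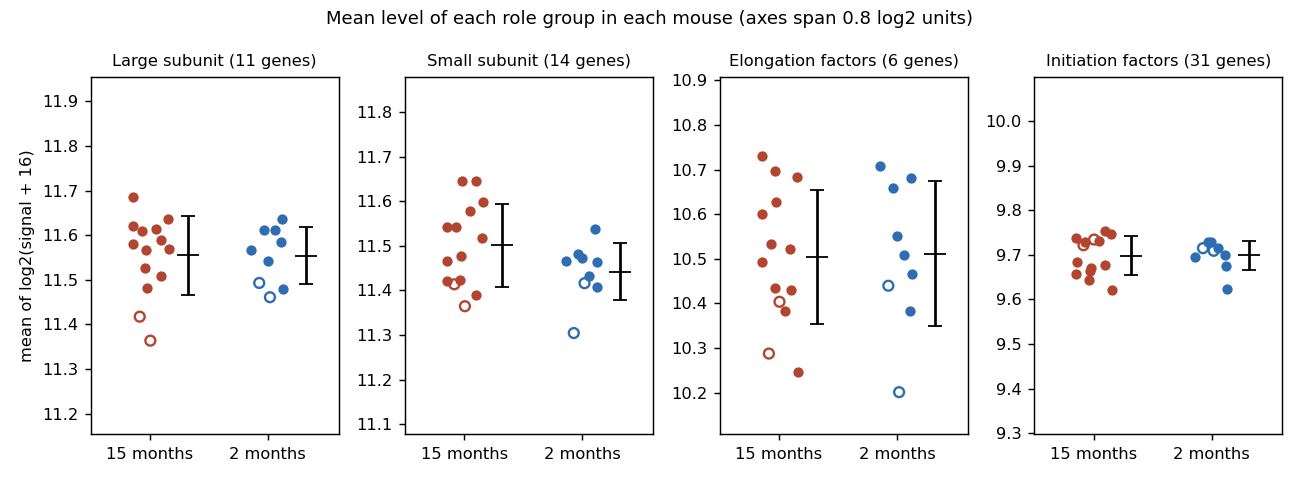
Mean of log2(signal + 16) over the tested genes of 4 role groups in each mouse, 14 of 15 months and 9 of 2 months; bars show mean ± SD, each axis spans 0.8 log2 units, and open circles are the 4 arrays with the lowest 99th percentile. The ages overlap in every panel, and open circles lie in the lower part for both ribosomal subunits but not for initiation factors.

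None of the array measures passed a test between the ages. The ratio of the 3′ to the 5′ Gapdh control signal was 0.797 ± 0.048 at 15 months and 0.806 ± 0.043 at 2 months (exact two-sided permutation test, p = 0.658), and that of actin was 1.40 ± 0.27 at 15 months and 1.28 ± 0.20 at 2 months (exact p = 0.294). The 3′ control probe set for 18S ribosomal RNA, which remains in total RNA, had 213 ± 154 at 15 months and 195 ± 55.7 at 2 months (exact p = 0.797). All 8 such measures had an adjusted p of 0.797.

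Genes around the ribosome were looked at through lists. Of 20 listed genes with TOP tracts or small nucleolar RNAs, 11 were tested, 7 were above 0, and none passed, with a median log2 change of 0.013. At an unadjusted p under 0.05, 3 were higher and 1 was lower, against 6.06% higher and 6.30% lower over all tested genes. The genes of lowest p were Hnrnpa1, an RNA-binding protein gene, and Snhg1, a small nucleolar RNA host like Gas5. Snhg1 had 252.5, 280.4 and 461.2 as lowest, median and highest at 15 months, against 210.3, 251.4 and 270.8 at 2 months. Its log2 difference was 0.28 ± 0.10 (SE; adjusted p = 0.240), and all 14 mice of 15 months exceeded the 2-month mean. Hnrnpa1 had 261 ± 47.5 at 15 months and 199 ± 34.0 at 2 months, for a log2 difference of 0.36 ± 0.10 (SE; adjusted p = 0.120) with the same count. The host genes Snhg11 and Snhg6, chosen after their values were seen, had log2 differences of 0.25 ± 0.10 (SE; adjusted p = 0.305) and 0.11 ± 0.06 (SE; adjusted p = 0.476). The 4 tested genes of this list that were below 0 are not named, and a shared change of host genes was not tested.

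Of 47 listed genes of ribosome biogenesis 40 were tested and none passed, with 19 above 0, 21 below and a median of -0.025. At an unadjusted p under 0.05, 1 was higher and 2 were lower, against 6.06% higher and 6.30% lower over all tested genes. The genes of lowest p pointed apart: Fbl, the methyltransferase of box C/D particles, had a log2 difference of -0.15 ± 0.06 (SE; adjusted p = 0.311), and Ncl, nucleolin, one of 0.26 ± 0.11 (SE; adjusted p = 0.361). Of 57 tested mitochondrial ribosomal protein genes 18 were above 0 and 39 below, with a median of -0.030 and none past the test, and an unadjusted p under 0.05 for 2 higher and 2 lower. Mrps31 had a log2 difference of -0.20 ± 0.06 (SE; adjusted p = 0.193) and Mrpl50 one of 0.36 ± 0.12 (SE; adjusted p = 0.234) in its probe set of lowest p, against 0.064 ± 0.081 (SE; adjusted p = 0.786) in its brighter one.

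Of 21 tested aminoacyl-tRNA synthetase genes 15 were below 0 and 6 above, with a median of -0.046 and none past the test. At an unadjusted p under 0.05, 6 of them were lower and 0 higher. Over all 5680 tested genes 3077 were below 0, and 6.30% were lower and 6.06% higher at that p. Aimp2, a scaffold of the multi-synthetase complex, had 1199 at 15 months and 1393 at 2 months on average, a log2 difference of -0.22 ± 0.07 (SE; adjusted p = 0.153). The isoleucine enzyme gene Iars had a log2 difference of -0.14 ± 0.05 (SE; adjusted p = 0.258). Of 20 tested translational control genes 7 were above 0 and 13 below, with a median of -0.057 and none past the test, and 2 higher and 2 lower by the unadjusted p. Pdcd4, which blocks the helicase eIF4A, had 2578 ± 239 at 15 months and 2167 ± 189 at 2 months, for a log2 difference of 0.25 ± 0.06 (SE) in 13 of 14 mice that missed the threshold (adjusted p = 0.0521). Ddit4, an mTOR inhibitor that glucocorticoids induce and that is in the glucocorticoid list too, had a log2 difference of 0.39 ± 0.11 (SE; adjusted p = 0.129).

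Of 6 tested genes of termination and nonsense-mediated decay 3 were above 0 and 3 below by their brightest probe sets, and none passed or had an unadjusted p under 0.05. Etf1, the release factor, had a log2 difference of 0.24 ± 0.09 (SE; adjusted p = 0.255) in its probe set of lowest p, which is not its brightest. By brightest probe sets the 6 genes ranged from -0.15 to 0.22. Smg5, a decay factor, had a log2 difference of 0.22 ± 0.13 (SE; adjusted p = 0.510). Another tested Smg5 probe set gave -0.0037 ± 0.10 (SE; adjusted p = 0.991). In the glucocorticoid list Sgk1 (log2 change 0.97 ± 0.17, adjusted p = 0.00613) and Zbtb16 (0.29 ± 0.06, adjusted p = 0.0128) had the lowest p, and all 14 mice of 15 months exceeded the 2-month mean for both. The glucocorticoid receptor gene Nr3c1, whose protein Gas5 can bind in human cells, was too dim to test.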

How the data were processed

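Total RNA of 23 hippocampi, 1 array per mouse, was labelled with biotin, per the labels' protocols. The authors deposited intensities on a linear scale, 1 MAS5 signal per probe set, per the submitters' processing notes, with its version not given in the sources used here. All arrays had been scaled alike (mean 499.9 on every array after trimming of 2% at each end), so no further normalisation was applied. The platform annotation gave a single gene symbol to 10833 of the 12422 non-control probe sets, more than 1 to 396, and no symbol to 1193. Signals were analysed as log2(signal + 16), which understates changes of dim genes. Probe sets above the 40th percentile of mean log2 signal, a signal of 91.7, were tested. Ages were compared with limma 3.58.1 in R 4.3.3 (intensity trend, robust variance). Tests were two-sided and p-values were adjusted by Benjamini-Hochberg over 7453 probe sets, at a false discovery rate of 0.05. Array measures were compared by exact permutation over 817190 regroupings, correlations with 100000 permutations (numpy 2.4.6, scipy 1.17.1, pandas 2.3.3, matplotlib 3.10.9, Python 3.11.15). The fit was tested on simulated normal values with 200 probe sets shifted. It called 32% of shifts of 0.25 on the log2 scale, 86% of 0.5, and 96% of 0.75 and of 1. It also called 4 unshifted probe sets. At most 44 values were identical between 2 arrays. The number of arrays limits precision.

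The members, lists and alternatives were chosen with earlier results of these data known. Genes to be named were Gas5, Rpsa, Tpt1, Npm1, Eef1a1, Eef1a2 and Eef2, every member past the threshold, the 3 genes of lowest p and those of highest and lowest signal in each role group, genes whose probe sets opposed each other at an unadjusted p under 0.05 (none did), and the 2 genes of lowest p in each pathway list. Marker lists covered hippocampal neurons, astrocytes, oligodendrocytes, microglia, endothelium, choroid plexus, meninges and red blood cells. No batch or scan date is given in the sources used here, and the running numbers of the titles do not overlap between ages, so handling order and age cannot be told apart.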

Additional observations from a re-analysis of the deposited data

Results flagged for a closer look

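In the 2-month group, 2 of 36 named members had 1 mouse far from the others, and chance gives about 1 in 20. For Gas5 it was 2-month replicate 1, at 3341.7 with the next mouse at 3807.6. Without that mouse the Gas5 log2 change was 0.202 (adjusted p = 0.0306). For Eef1a2 it was 2-month replicate 2, at 4386.8 with the next mouse at 5312.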

How the results depend on the processing

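The brighter Gas5 probe set passed in all 34 alternative settings, with log2 changes of 0.202 to 0.247 and adjusted p of 0.0066 to 0.0322, and in each of them it was the 1 member past the test (0 members lower). The dimmer Gas5 probe set passed in none of its 33 settings (adjusted p 0.146 to 0.491). The role group medians stayed between -0.025 and 0.068, within the spread between mice. Over all probe sets, 39 were higher and 21 lower when the arrays' 25th percentile was a covariate, 6 lower with the 60th-percentile filter and 5 with array weights, and 2 to 7 lower (18 to 32 higher) when a mouse was left out, against 25 higher and 3 lower; leaving out 15-month replicate 3 gave 7 lower, and leaving out replicate 9, 10 or 12 of that age gave 5. Signs turned for some named members, none of them past the test; their changes lay within 0.07 of 0 except that of Eef1a1 (0.15). With the 99th percentile as covariate the log2 changes were -0.0059 for Eef1a1, -0.019 for Eef2, -0.032 for Rpl19, -0.016 for Rplp0, -0.051 for Rps24 and -0.0086 for Tpt1. With the 25th percentile they were -0.0041 for Eif2b5 and -0.0045 for Rplp0, with quantile normalisation -0.021 for Rplp0, and with array weights 0.0088 for Eif1a and 0.020 for Eif1b. Without the 4 arrays of lowest 99th percentile they were 0.012 for Eif1b, -0.017 for Eif2b5 and 0.028 for Rpl7l1. When a mouse was left out they ran from -0.0046 to 0.020 for Rplp0, -0.033 to 0.010 for Eif1b, -0.0023 to 0.027 for Eif2s3x, -0.069 to 0.0053 for Eif1a, -0.11 to 0.0062 for Rpl7l1, -0.0038 to 0.13 for Eif2s2, -0.023 to 0.044 for Eif2b5, -0.0038 to 0.076 for Eef2 and -0.015 to 0.062 for Rps24. The causes were not tested. No paired analysis was possible because each mouse gave 1 array at 1 age, and the replicate numbers used here only name the mice. Signal limits the dim members most: Eif3f, near the filter, ranged from -0.61 to -0.40 (adjusted p 0.0776 to 0.221).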

Other observations

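Rpl41, a very short protein of the large subunit, and Rps19, a small subunit protein needed for red blood cell formation in humans, varied more between mice than most members; both were picked once their values had been seen. Rpl41 lay between 3463.6 and 11670.2 at 15 months and between 3515.4 and 9829.1 at 2 months, with an SD between mice of 0.53 on the log2 scale, against a median of 0.20 over member probe sets and 0.23 over all tested ones. The lowest Rpl41 signal of each age came from the 4 arrays of lowest 99th percentile, on which Rpl41 lay 0.47 to 0.99 below its age's mean log2 level, against 0.76 below to 0.75 above on the other arrays. The SD of Rps19 was 0.40. Their log2 differences between the ages, 0.08 ± 0.21 and 0.18 ± 0.16 (SE), did not pass.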
